A study of Mus musculus with 4 samples.

Results

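MyoD sites that lay outside every gene region and appeared in both deposited peak lists numbered 2951. MyoD is the bHLH transcription factor that commits cells to the muscle lineage, and ChIP-seq had located its binding in myotubes, muscle cells with many nuclei that form when myoblasts fuse. A peak was kept when it overlapped a peak of the other list by at least 1 base and both files gave it no gene. Pairs in which both peaks were 400 bases or wider were left out. The sites were thus chosen by measured values, the overlap and the width, and neither is a finding here. The 2951 sites came from 2972 overlapping pairs, with 2966 of the 11907 peaks of the list labelled with pyruvate and 2957 of the 19338 peaks of the list labelled without. All shared sites, in and outside genes, numbered 8518.

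The cells were primary myoblasts of C57BL/6 mice aged 2 weeks, grown in 20% serum and differentiated for 5 days in 2% horse serum. The myotubes were then kept for 24 hours with pyruvate or without it, and MyoD was precipitated with the antibody SC-760 in both conditions. There was 1 MyoD library and 1 input library per condition, and the inputs were not analysed here. No difference between the lists therefore has a replicate check, read depth is unknown, and no p-value is given. The sample titles alone say which list belongs to which condition. Short codes in the deposited file names could be taken for the reverse assignment, which would turn round every direction given here. The series title places the cultures in a study of G-CSF secreted by muscle, and the comparison made was MyoD occupancy with against without pyruvate.

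MyoD binds short E-box motifs as a dimer with an E protein, and much of its binding in muscle cells lies far from promoters. Distal sites can act as enhancers, which loop to promoters that are not always those of the nearest gene. Well-known examples in muscle include the upstream enhancers of Myod1 itself and those of the muscle microRNAs, which are made from genes in intergenic or intronic positions. A peak shows occupancy only, so no site here is called an enhancer, and no gene is called its target.

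Muscle microRNA genes are among those that sites without a gene can lie beside, and the files give none of them a symbol. Mature sequences from RefSeq (GRCm38.p6) are shown for a selection of 5, made at 3 loci whose intervals held shared sites and are described later. They are written 5′ to 3′, and capitals mark the seed, bases 2 to 8, which pairs with target mRNAs. miR-208a-3p and miR-208b-3p share a seed, and each of the others has a seed of its own.
miR-206-3p: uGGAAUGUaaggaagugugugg
miR-133b-3p: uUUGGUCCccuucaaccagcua
miR-208a-3p: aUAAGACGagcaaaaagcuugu
miR-208b-3p: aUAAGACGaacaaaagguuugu
miR-499-5p: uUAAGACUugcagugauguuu

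How the paired peaks lay on each other is given as a description, since the rule chose them for overlap. Of the sites, 2930 joined 1 peak of each list, and 21 joined more than 1 peak of a list. Over the 2930 sites the peak centres lay a median of 17 bases apart. They were within 25 bases at 65.2% of sites, within 50 at 87.4% and within 100 at 96.8%, and the largest shift was 320 bases. The narrower peak lay wholly inside the wider one at 1960 of these sites (66.9%). In the list with pyruvate, 66.6% of the 4455 peaks outside genes belonged to the chosen sites (95% exact binomial interval 65.2 to 68.0). In the longer list without pyruvate it was 37.2% of 7957 (36.1 to 38.2). With the wide pairs included, 72.4% of peaks outside genes with pyruvate had a partner (71.1 to 73.7), beside 71.5% of peaks in gene regions (70.5 to 72.5). Without pyruvate the shares were 40.4% outside genes (39.3 to 41.5) and 46.9% in gene regions (46.0 to 47.8). These and all later intervals cover counting error only, and neighbouring peaks may not be independent.

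Peak width was the sole measure per peak, because the columns headed for enrichment hold no usable value. Width reflects binding but also sequencing depth and the length of the fragments. The chosen peaks had a median width of 259 bases with pyruvate (quartiles 213 and 313, range 169 to 930) and 287 bases without (238 and 348, range 144 to 958). Peaks outside genes that were found in 1 list had medians of 219 and 214 bases. The site was wider without pyruvate in 1896 cases, wider with pyruvate in 1047 and equal in 8, and the median ratio without to with was 1.11. It was at least 1.5 times wider without pyruvate at 443 sites, or 15.0%, against a background of 11.8% over all shared sites. It was at least 1.5 times wider with pyruvate at 195 sites, or 6.61%, against 6.4%. The rule used width, so these shares describe the selection and nothing is read from them. At the width limit, 84 pairs had a narrower peak of 375 to 399 bases and were kept, and 59 had one of 400 to 424 bases and were not. The nearest kept pairs measured 429 and 399, 399 and 433, and 399 and 952 bases with and without pyruvate, and the nearest left out 400 and 530, 400 and 507, and 473 and 400.

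**Figure D1:**
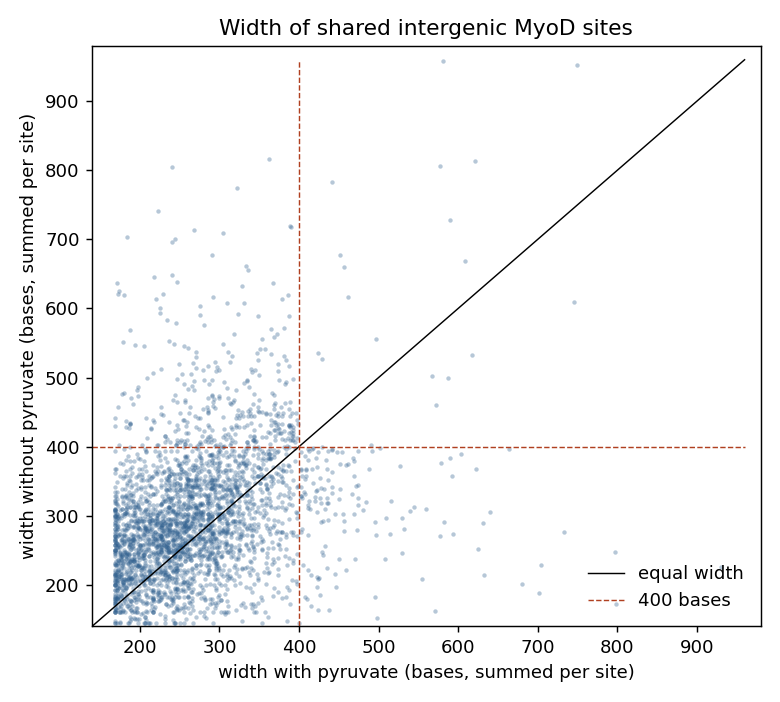
Each point is 1 of the 2951 sites, with its width in bases with pyruvate on the x axis and without pyruvate on the y axis, summed where a site holds more than 1 peak of a list. The solid line marks equal width and the dashed lines 400 bases; 1896 points lie above the line of equal width, and the upper right corner is nearly empty because pairs wide in both lists were left out.

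Single sites departed far from equal width in both directions. A site between Sik1 and Hsf2bp, chr17:32066820-32067620 (all coordinates in mouse build mm9), was 798 bases wide with pyruvate and 172 without. A site 41.0 kb from Sh3glb1 was 930 bases wide with pyruvate and 226 without, and a site 84.8 kb upstream of Bcl6, a zinc finger repressor, was 571 and 162. In the other direction, a site 102 kb from Naca, which encodes a subunit of the nascent polypeptide-associated complex, was 184 bases wide with pyruvate and 703 without. A site 191 kb from Tsc22d1 was 172 and 621 bases wide. These are the ends of the ratio's range, chosen for their values. Among the widest sites in both lists together were chr8:89296676-89297490, 48.9 kb from Lonp2 (621 and 814 bases), and chr10:76692225-76692967, 60.5 kb from the RNA-editing enzyme gene Adarb1 (590 and 728 bases).

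Most sites lay more than 50 kb from a gene that the files name. A file names a gene only where a peak touches its body or its 2000-base flank, so the nearest named gene is the nearest gene with MyoD bound, not always the nearest gene. The median distance to it was 60.0 kb (95% interval 56.7 to 63.4, quartiles 20.7 and 160 kb). Within 10 kb lay 388 sites (13.1%), within 50 kb 1322 (44.8%, 43.0 to 46.6) and within 100 kb 1864 (63.2%), while 48 (1.63%) were more than 1 Mb away. The wide pairs that were left out had a median of 53.1 kb (44.0 to 76.7). Peaks found with pyruvate alone had a median of 67.6 kb (59.6 to 77.3), and those found without pyruvate alone 81.0 kb (75.3 to 84.9). The interval of the shared sites overlapped the first 2 of these and lay below the third. Width made little difference among the shared sites, with medians of 61.0, 59.3 and 58.6 kb in the narrowest, middle and widest of 3 classes of about equal size.

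**Figure D2:**
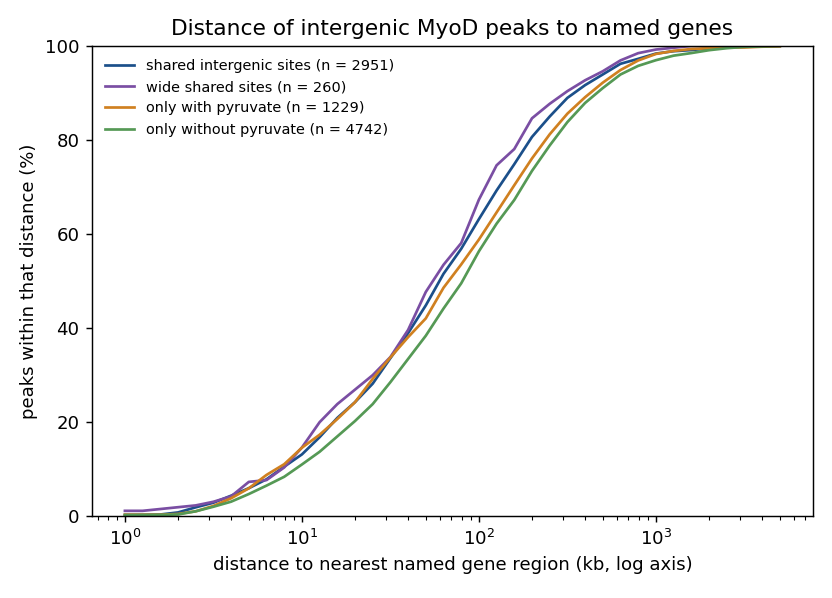
Cumulative share (%) of peaks outside gene regions within a given distance (kb, log axis) of the nearest gene region the files name, for 4 kinds of peak. The curve of the shared sites crosses 44.8% at 50 kb, beside 47.7% for wide shared sites, 41.9% for peaks with pyruvate only and 38.3% for peaks without pyruvate only.

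The extremes of distance stood in different surroundings. The farthest sites lay in chromosome 3, where 3 sites were 4069 to 4340 kb from Pde7a, a cyclic AMP phosphodiesterase gene. One of them, chr3:14787101-14788053, was also among the widest, with 749 bases with pyruvate and 952 without. RefSeq places 21 coding genes between the named neighbours there, among them the E2F-family gene E2f5 and the carbonic anhydrase gene Car3. Of the 10 farthest sites, 4 lay on the X chromosome. At the near end, 24 sites were less than 2000 bases from a listed region, 13 from a flank and 11 from a gene body. The 11 were 1815 to 1991 bases from the body, at the outer edge of the 2000-base flank, although the authors gave them no gene. They included Myl1, the fast-muscle myosin light chain (1815 bases; widths of 467 with pyruvate and 331 without), Ttn, the giant spring protein titin of the sarcomere (1991 bases; 234 and 259), and Fbxo32, the ubiquitin ligase of muscle atrophy (1988 bases; 274 and 334). The closest to the listed flank of a gene with a symbol were 38 bases from that of the bradykinin receptor gene Bdkrb1, 135 from that of Cdk9, a kinase of transcription elongation, and 195 from that of Nr4a3, an orphan nuclear receptor.

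The nearest named genes were 1679 in number, and few of them collected many sites. Of these, 1022 were nearest to 1 site and 81 to 5 or more. Upstream and downstream were nearly even, with 52.6% of 2531 sites upstream where the file lists a gene body (50.7 to 54.6). The nearest gene was named in both files for 63.8% of sites, although 55.1% of all 7262 named genes were. Genes annotated in the files as having transcription factor activity were 4.76% of named genes, 6.57% of the nearest genes (5.34 to 7.97) and 11 of the 66 annotated genes nearest to 5 or more sites (16.7%, 8.62 to 27.9). For catalytic activity the shares were 27.6%, 27.9% and 21.2%. Genes in large gaps have more room for sites, and gap size was not adjusted for.

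Several of the genes with most sites encode regulators of transcription and signalling. Spry2, an inhibitor of receptor tyrosine kinase signalling, and Tle3, a Groucho-type corepressor, were each nearest to 10 sites, at 147 to 2135 kb and 15.6 to 444 kb. The distances of Spry2 run to its listed flank. Qk, the RNA-binding protein Quaking that controls splicing, was also nearest to 10, at 7.16 to 523 kb. Eya4, a transcriptional coactivator of the eyes absent family, Runx1, a runt-domain factor, and Dusp10, a phosphatase of stress kinases, were nearest to 8 each. In that order the sites lay at 12.1 to 495, 52.1 to 367 and 56.6 to 309 kb. Sspn, sarcospan of the dystrophin complex, had 7 sites between 3.38 and 59.3 kb, with widths of 221 to 360 bases with pyruvate and 246 to 345 without. Hdac4, the class II deacetylase that represses MEF2, and Rb1, the retinoblastoma gene of cell-cycle exit, were nearest to 6 each. Those sites lay at 54.2 to 231 kb and 77.8 to 445 kb, with 1 site of each gene within 100 kb. The top of the order held genes of no known muscle role too, such as the unnamed ENSMUSG00000086318 with 14 and the predicted gene Gm5084 with 12.

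Neighbouring sites were joined into a cluster where gaps were at most 12500 bases. Clusters held 761 sites (25.8%, 24.2 to 27.4), in 277 pairs, 49 triplets, 10 groups of 4 and 1 group each of 5, 6 and 9. The median gap between neighbours was 239 kb, with quartiles of 38.4 and 916 kb. Another shared site of any kind, in a gene or not, lay within 12500 bases of 31.3% of the sites (29.7 to 33.1). The share was 43.1% for the wide shared sites outside genes (37.0 to 49.3) and 35.1% for shared sites in gene regions (33.8 to 36.4). It was 29.1% for peaks with pyruvate only (26.6 to 31.8) and 20.8% for peaks without pyruvate only (19.6 to 22.0). Peaks found in 1 list also lay near the chosen sites. A chosen site was within 12500 bases of 293 of 1229 peaks with pyruvate only (23.8%, 21.5 to 26.3) and of 820 of 4742 without pyruvate only (17.3%, 16.2 to 18.4).

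The largest cluster held 9 sites in 36.1 kb, chr17:7813103-7849219, 82.2 kb from Fndc1, a fibronectin type III domain gene. RefSeq places no other coding gene between Fndc1 and Gm9992, the named genes on either side. From the first to the last, the sites measured 181, 180, 288, 327, 268, 192, 298, 374 and 253 bases with pyruvate. Without pyruvate they measured 279, 620, 245, 376, 264, 245, 299, 327 and 360 bases. The second site stood apart, since it was the widest without pyruvate and the narrowest with it. A single peak of the list without pyruvate, and none of the list with pyruvate, lay unpaired inside the cluster.

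The next clusters were smaller. A cluster of 6 sites spanned 32.4 kb at chr12:88143222-88175663, between Esrrb, an orphan nuclear receptor, and 6430527G18Rik, in an interval in which RefSeq also has Vash1, Angel1 and Lrrc74a. Their widths were 305, 175, 282, 361, 334 and 236 bases with pyruvate and 313, 273, 285, 295, 226 and 313 without. The cluster of 5, chr16:92948762-92980185, was 122 kb from Runx1, with widths of 232, 321, 377, 497 and 312 bases with pyruvate and 214, 164, 357, 272 and 366 without. Among the groups of 4, one lay 15.6 kb from Tle3 in 9.36 kb, with widths of 276, 365, 333 and 302 against 302, 439, 257 and 275 bases. Another lay 22.1 kb upstream of Bin1, the membrane-bending protein of T-tubules, with 303, 238, 169 and 315 bases with pyruvate against 241, 287, 160 and 252 without. In none of these groups was every site wider in the same list. A group 147 kb from the chromodomain gene Cdyl was less even, with 176, 295, 577 and 390 bases with pyruvate and 238, 280, 806 and 718 without.

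**Figure D3:**
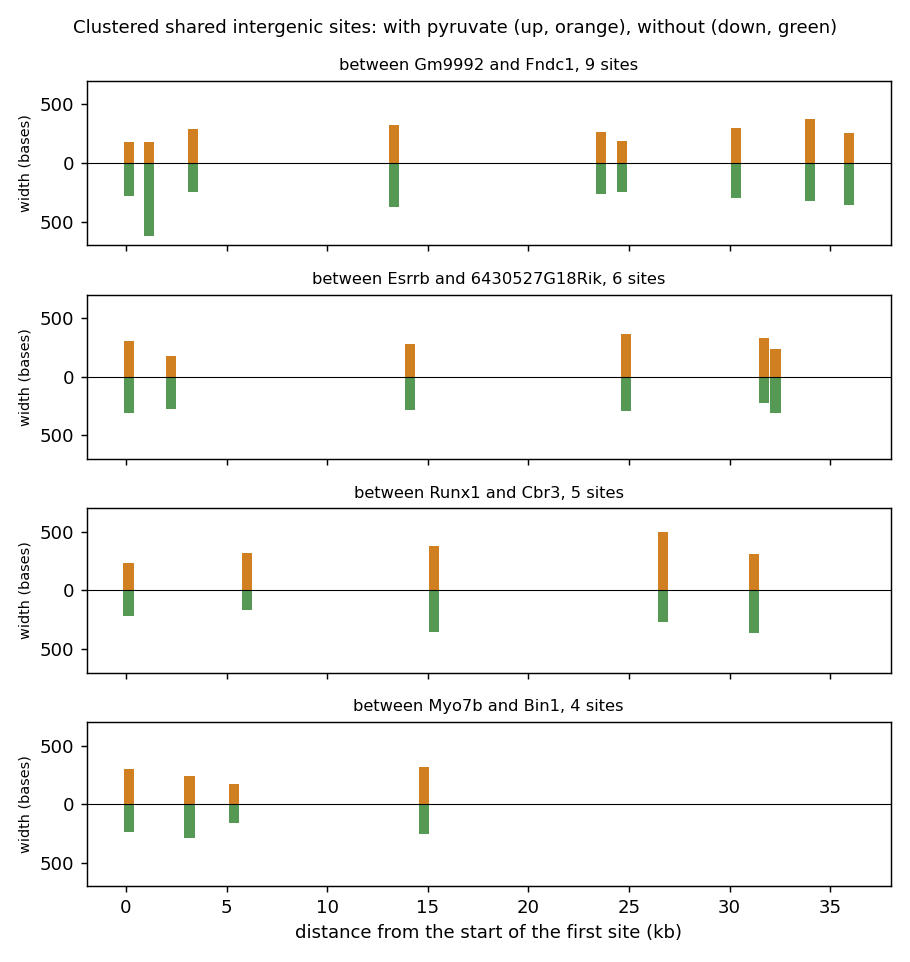
Shared sites of 4 clusters, placed by their distance in kb from the start of the first site; bars give the width in bases with pyruvate (up, orange) and without pyruvate (down, green), and the bars' own thickness is not to scale. The 9 sites beside Fndc1 spread over 36.1 kb, and the 4 sites beside Bin1 over 15.0 kb.

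Whole gaps between named genes differed in how many sites they held. Sites were found in 1537 of the 5921 gaps (26.0%), and 105 gaps with 5 or more held 686 sites, while the average was 1.48 sites per Mb of gap. The gap between Irf2bp2, a corepressor gene, and Rbm34 held 14 sites in 354 kb, or 39.6 per Mb, and RefSeq has Tomm20, a mitochondrial import receptor, there. Those sites measured 204 to 590 bases with pyruvate and 173 to 619 without. They fell into 2 stretches, 5 sites at 1.86 to 90.5 kb from Irf2bp2 and 9 at 27.6 to 108 kb from Rbm34. A further 14 sites lay in 859 kb between ENSMUSG00000086318 and Auh, where RefSeq has Diras2 and Syk, along with 19 unpaired peaks without pyruvate and 7 with. Between Tbc1d1, a regulator of glucose transporter traffic in muscle, and Tlr6 there were 11 in 602 kb, and RefSeq has the Krüppel-like factor gene Klf3 among the genes there. Chromosomes varied as well, from 0.343 sites per Mb of gap on X to 2.33 on chromosome 15.

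Sik1, a salt-inducible kinase that phosphorylates class II histone deacetylases, had 8 sites within 100 kb, the largest number of any named gene and one it shared with Rbm34. On the side of Hsf2bp there were 5 sites, with widths of 290, 388, 227, 381 and 798 bases with pyruvate and 179, 431, 372, 531 and 172 without. Hsf2bp was nearer to the last 3. On the side of Cbs the gap held 4 sites, of which 3 were within 100 kb of Sik1. The 3 were 664, 284 and 265 bases wide with pyruvate and 396, 315 and 270 without. The direction of the width difference was thus mixed around this gene. Sik1 was named for its count, after its values were seen.

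Genes of muscle regulation and structure had shared sites beside them at shares above that of all named genes. Over all 7235 named genes, 2308 had a chosen site within 100 kb of their listed region, a background of 31.9%, and the median gene had 0. Among 29 named myogenic regulators 16 had one (55.2%, 35.7 to 73.6). Among 37 sarcomere genes it was 21 (56.8%, 39.5 to 72.9), and among 20 satellite cell and Notch genes 14 (70.0%, 45.7 to 88.1). Of 48 genes of excitation, membrane and fusion, 23 had one (47.9%, 33.3 to 62.8). Each of these shares lay above 31.9%. Itga7, Ncam1 and Vcam1, each with a site, are counted in both of the last lists, which are thus not independent. The medians were 1 site per gene in the first 3 lists and 0 in the fourth. Fewer listed genes were themselves the nearest named gene of a site within 100 kb. They numbered 15, 10, 10 and 15 in the order of the lists. Of all 7262 named genes, 1679 were nearest to a site at any distance. Their count within 100 kb is not given, so these numbers have no background. The lists were chosen with results of these data known, so their counts and intervals are a description and no test. Neither the length of the genes nor the size of the gaps beside them was adjusted for.

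Lists of metabolism and of other tissues lay on both sides of the background, with wide intervals. Glycolysis and glycogen had 6 of 17 genes (35.3%, 14.2 to 61.7) and mitochondrial metabolism 3 of 14 (21.4%, 4.66 to 50.8). Secreted factors had 5 of 17 (29.4%, 10.3 to 56.0) and cytoskeleton and nuclear lamina 8 of 23 (34.8%, 16.4 to 57.3). Fibroblast and matrix genes had 10 of 22 (45.5%, 24.4 to 67.8), and developmental transcription factors 10 of 25 (40%, 21.1 to 61.3). Each of these intervals overlapped those of the muscle lists above. Of markers of other cell types, the files named 5 of 20 neuronal, 2 of 20 liver and 3 of 20 blood genes. Of these, 2, 0 and 1 had a site within 100 kb. Ribosomal protein genes, with 3 of 30 named, had 1. Most genes are not named: RefSeq has 15967 coding genes without a name in the files, beside 6060 named genes matched to it. The low counts of named markers are thus not read as specific to these cell types.

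**Figure D4:**
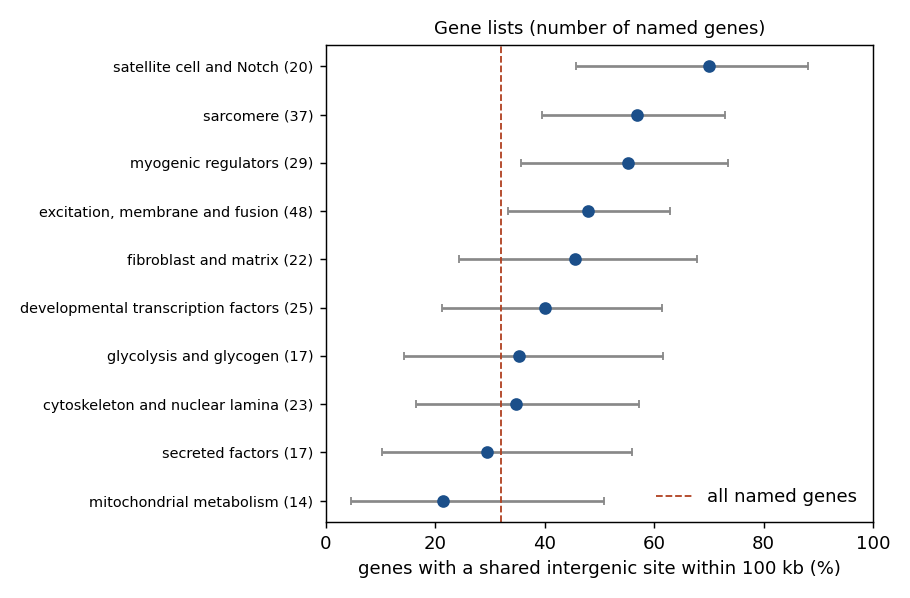
Share (%) of the named genes of each list that had a shared intergenic site within 100 kb, for the lists with at least 10 named genes; bars are 95% exact binomial intervals and the dashed line is the 31.9% of all named genes. The satellite cell and Notch list is highest at 70.0% and mitochondrial metabolism lowest at 21.4%. A site counts even where another named gene was nearer to it.

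Regulators of the myogenic programme differed widely in their surroundings. Pax7, the paired-box factor of satellite cells, had 5 sites at 7.45 to 47.0 kb, 4 downstream and 1 upstream. Their widths were 351, 294, 243, 235 and 195 bases with pyruvate and 338, 456, 549, 326 and 317 without, so 4 of the 5 were wider without. Mef2a, a MADS-box partner of MyoD, had 6 sites between 15.9 and 91.4 kb from its listed flank, of 313, 270, 244, 393, 391 and 473 bases with pyruvate and 251, 268, 248, 428, 207 and 279 without. For the last 3, at 84.9 kb and beyond, Lrrc28 was nearer. Myog, which drives terminal differentiation, had 1 site at 4.54 kb (239 and 251 bases) and 1 at 84.2 kb (247 and 332 bases), to which Tmem183a was nearer. Id1, an inhibitor that sequesters E proteins, had sites at 4.36 kb (173 and 209 bases) and 7.25 kb (187 and 379 bases). As for Mef2a, the distances of Myog and Id1 run to a listed flank. No site lay within 100 kb of Mef2c, and the nearest was 1973 kb away.

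Notch signalling, which holds satellite cells undifferentiated, had sites beside some of its genes at the receptor, ligand and target level. Notch2, Heyl and Numb had none within 100 kb. Jag2 and Hes6 had 1 each, to which another named gene was nearer. Notch3 had 3 but was the nearest named gene of only 1, and Rbpj had 1. The receptor gene Notch1 had 3 sites 15.2 to 27.2 kb upstream, with widths of 343, 257 and 169 bases with pyruvate and 445, 267 and 264 without. The ligand gene Dll1 had 2 sites at 9.94 and 14.1 kb downstream and 1 at 85.3 kb upstream, of 284, 338 and 255 bases with pyruvate and 241, 282 and 253 without. ENSMUSG00000085544 was nearer to the upstream site. The target Hes1 had a site at 2.35 kb (317 and 465 bases) and one at 69.1 kb (287 and 228 bases). The target Hey1 had sites at 29.3 kb (239 and 394 bases) and 48.3 kb (245 and 341 bases) from its listed flank. Met, the receptor for hepatocyte growth factor that activates satellite cells, had a site at 1.97 kb (299 and 311 bases) and 2 at 57.6 and 59.9 kb. The sites of Notch1 and Hey1 were all wider without pyruvate, and the 3 of Dll1 all wider with it.

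Structural and synaptic genes were mixed in number of sites. Des, the muscle intermediate filament desmin, had 1 at 13.2 kb (318 and 563 bases) and 1 at 65.1 kb (194 and 301 bases). Both distances run to its listed flank. Leiomodin genes, which nucleate actin filaments, had 1 site each, at 10.6 kb for Lmod2 (243 and 242 bases) and 7.12 kb for Lmod3 (370 and 424 bases). Bin1 had another site 9.24 kb downstream (244 and 474 bases), and Dok7, an activator of the synaptic kinase MuSK, had 3 sites at 78.2 to 82.8 kb. Itga7, the laminin-binding integrin subunit of muscle, had sites at 2.02 kb (392 and 272 bases) and 41.1 kb (301 and 365 bases). Tln2, the talin of muscle adhesion sites, had 5 at 5.53 to 79.0 kb, and another named gene, without a symbol, was nearer to the farthest. Ckm, muscle creatine kinase, had 1 at 92.1 kb from its listed flank, for which Rtn2 was nearer. Acta1, skeletal alpha-actin, had none within 774 kb.

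Matrix, transport and signalling genes completed the named set. Col4a1, a basement membrane collagen, had 6 sites downstream at 14.3 to 69.8 kb, of 171 to 587 bases with pyruvate and 247 to 499 without. Slc2a1, the basal glucose transporter GLUT1, had 2 sites upstream at 2.61 kb (189 and 470 bases) and 6.15 kb (216 and 439 bases). Both were more than 2 times as wide without pyruvate, on single libraries. Wnt4, a Wnt ligand, had 3 sites at 48.6 to 76.6 kb, to 1 of which, at 67.9 kb, Cdc42 was nearer. Csf3, which encodes G-CSF, had none within 100 kb, and its nearest site was 436 kb from its listed flank.

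The gene of MyoD itself is not named by the files, but sites lay in its interval. This is common, since 35.4% of 15300 coding genes that the files do not name had a chosen site in theirs. RefSeq places Myod1 and the potassium channel gene Kcnc1 between Otog and Sergef, named genes 132 kb apart. There were 3 chosen sites in it: chr7:53571064-53571433 (369 bases with pyruvate and 233 without), chr7:53572365-53572674 (309 and 207 bases) and chr7:53608439-53609042 (603 and 389 bases). All 3 were wider with pyruvate. The interval also held 2 wide shared peaks. These measured 433 and 528 bases with pyruvate and 478 and 477 without, so their direction was mixed. There were 6 peaks with pyruvate only, of 204 to 406 bases, and 0 peaks without pyruvate only. This is the reverse of the whole lists, where the list without pyruvate is the longer. With 1 library per condition the difference has no replicate check, and the files do not place the start of Myod1, so no distance to it is given. The interval of the related factors Myf5 and Myf6, 92.2 kb between Lin7a and Ptprq, held no peak outside genes in either list. Cdkn1a, the cell-cycle inhibitor p21 that acts in muscle exit from the cycle, lay in an interval of 89.7 kb between Srsf3 and Rab44. It held 2 chosen sites, both wider with pyruvate (509 and 296 bases, and 296 and 232 bases), and 1 peak with pyruvate only. Their nearest named gene was ENSMUSG00000085912, which has no symbol, at 6.25 and 3.33 kb.

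**Figure D5:**
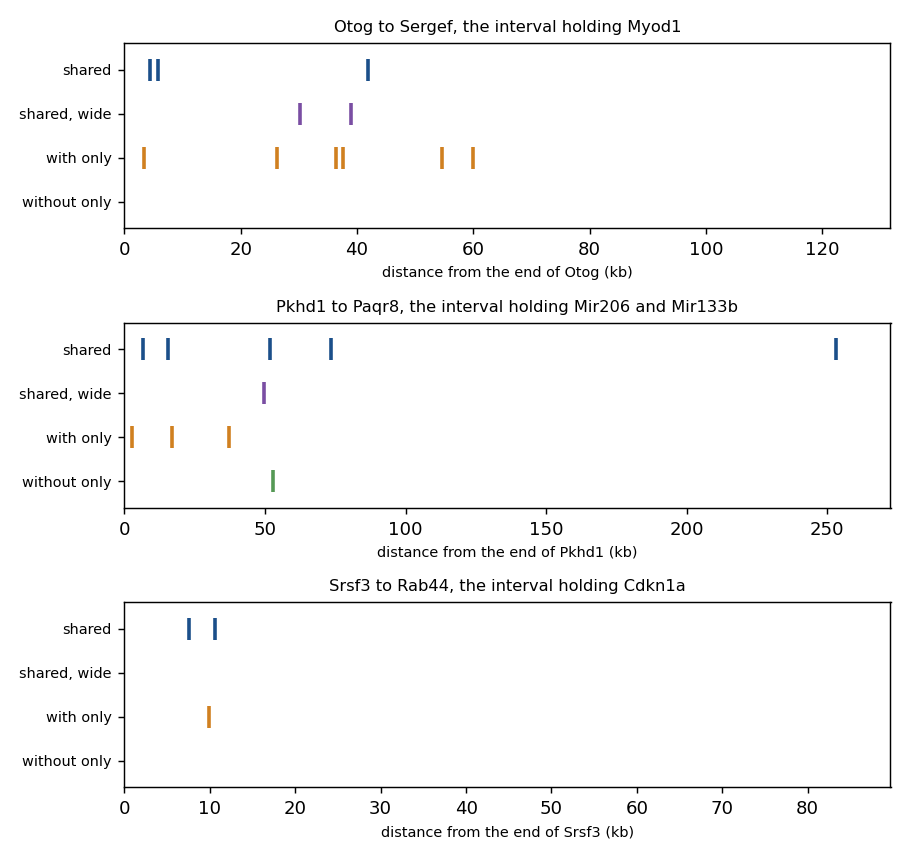
Peaks outside gene regions in 3 intervals between genes named with a symbol, placed by distance in kb from the end of the left gene; rows are chosen shared sites, wide shared peaks, and peaks found only with or only without pyruvate. The interval that holds Myod1 has 3 chosen sites and 6 peaks with pyruvate only, and its lowest row is empty.

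Of the microRNAs whose sequences are given above, miR-206 and miR-133b come from 1 locus, which RefSeq places between Pkhd1 and Paqr8, 273 kb apart. These are the nearest genes on either side that the files name with a symbol. This locus is expressed in skeletal muscle, and miR-206 is known as a MyoD target. The interval held 5 chosen sites, of 474, 579, 389, 282 and 265 bases with pyruvate and 344, 377, 444, 261 and 370 without. The first 4 lay within 73.6 kb of Pkhd1 and the fifth 253 kb from it. The files also name ENSMUSG00000065559 there, without a symbol, with a listed flank at chr1:20667091-20669090 that both lists touch. It was the nearest named gene of the third site, at 6.88 kb, and of the fourth, at 12.4 kb. RefSeq's table gives no match for its ID, so which gene it is was not determined. The interval also held 1 wide shared peak, 3 peaks with pyruvate only and 1 without pyruvate only. RefSeq has the coding genes Il17a, Il17f and Mcm3 in it as well, so the sites cannot be tied to the microRNAs from position alone.

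The other microRNAs whose sequences are given, miR-208a, miR-208b and miR-499, are made within myosin genes. Mir208a and Mir208b, of the heart and slow-muscle myosin loci, lay in an interval with 2 chosen sites before Zfhx2, in which RefSeq also has Myh7 and Ngdn. Myh6, the heart myosin gene, was the nearest named gene of both, at 30.5 and 35.3 kb. Mir499 lay between Gss and Trpc4ap, 41.5 kb apart, with 1 site of 310 bases with pyruvate and 212 without, 11.4 kb from the named gene ENSMUSG00000085010. The interval with Mir1a-2 and Mir133a-1, on chromosome 18, had 4 sites in 1387 kb, but it also holds Mib1, a named gene 491 kb or more from any of them. Mib1 was the nearest named gene of 1 site. ENSMUSG00000087420 was nearest to the other 3, at 38.5, 268 and 368 kb. The intervals of Mir1a-1 with Mir133a-2 and of Mir486 had 0 sites. The list of 10 muscle microRNA genes was made after the data were seen, and they share few intervals. Of these, 7 lay in an interval with a chosen site (70.0%, 34.8 to 93.3). Over 1208 microRNA genes the share was 41.0% (38.2 to 43.8), which lies inside that interval of the muscle list.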

How the data were processed

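The submitters' processing notes name bcl2fastq 2.19, Bowtie2 2.1.0, MACS2 2.1.1 and the mouse build mm9. The calling threshold, the use of the inputs and the annotation are not given in those notes or labels. The deposited files list 1 row per peak and gene region touched (body or 2000-base flank), and the authors' enrichment columns hold only 0 or a dash. Rows were reduced to distinct peaks. Pairs sharing a peak were merged into 1 site, with widths summed. The members, lists and tests were chosen with earlier results of these data known. Distance ran to the nearest listed region, and for 1469 of 7262 genes only a flank is listed. Symbols (6060 of 6174 matched) and gene order came from RefSeq GRCm38.p6, whose coordinates were not used. Without the mm9 genome, motifs were not analysed here.

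Named genes followed a rule: the 10 widest, farthest and closest sites, the 10 largest clusters, extreme width ratios, up to 5 genes per list, and 10 genes whatever their values; the text gives a selection of these. Genes with most sites, gaps, Sik1, Cdkn1a and the microRNAs were added after values were seen. Intervals are exact binomial (Clopper-Pearson), or order-statistic for medians. The alternatives were other overlaps, width limits, gene sets, chaining distances and windows. Overlap, distance and clustering code was tested on simulated peaks. Scripts ran in Python 3.11.15 with scipy 1.17.1 for intervals, pandas 2.3.3, numpy 2.4.6 and, for plots, matplotlib 3.10.9.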

Additional observations from a re-analysis of the deposited data

How the results depend on the processing

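Of 22 alternatives, 12 moved a value by less than its interval or 1.5 times a count. The median distance of 60.0 kb became 68.5 kb with genes that have a symbol only, 113 kb with genes that have a shared peak only, and 108 kb to the nearest located start site. The share of sites in clusters, 25.8% at 12500 bases, was 15.9% at 5 kb, 35.1% at 25 kb, 44.5% at 50 kb, 28.7% with no width limit and 31.3% when all shared peaks could join. List genes with a site fell from 117 (44.7% of 262) at 100 kb to 77 (29.4%) at 50 kb and 51 (19.5%) at 25 kb, beside 31.9%, 20.2% and 11.8% of all named genes. At 100 kb, 79 list genes were the nearest named gene of a site, and the share of all named genes by this rule is not given. Pairs numbered 2796 to 3232 under other overlaps or no width limit and 2394 with a limit of 300 bases. No paired analysis was possible because each condition has 1 MyoD library. Because no depth is known, absence from a list may mean a signal below detection.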
